A study of Apis mellifera with 25 samples.

Results

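In honey bee workers (Apis mellifera), 122 of 15314 counted genes (0.797%) lay at a low mean level with inactive ovaries and at a higher one with active ovaries. The members were chosen on the counts themselves, as CPM, the count of a gene scaled to a library total of 1000000. A member had a mean under 1 CPM over the bees with inactive ovaries, at least 1 CPM in 6 or more of the 12 bees with active ovaries, and a mean in active bees at least 2 times that in inactive bees. A member is called on in a bee where it had at least 1 CPM. The difference between active and inactive bees chose the members, so it is given below as a description, with no test. Tests were kept for what the rule did not use. These are differences between prefixes (explained below) among active bees, among inactive bees and in the change with ovary status, and parental read counts. The rule did act on the levels of active bees and on the mean change with ovary status, so members are not set against other genes in these tests.

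Worker honey bees are normally sterile while their colony has a queen. In a colony that has lost its queen, some workers activate their ovaries and lay unfertilised eggs, which develop into drones. An active ovary holds growing oocytes with their nurse and follicle cells, and the fat body of the abdomen makes the yolk protein that the oocytes take up. Which of the members belong to these tissues cannot be said from names. The identifiers of the gene table are not paired with names in the files, and 0 of the 15314 matched a reference list of 12398 genes of the assembly Amel_HAv3.1, so neither roles nor marker genes are given.

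The active group held 12 adult workers whose ovaries were found active on dissection, and the inactive group held 13 whose ovaries were found inactive. Both groups were offspring of reciprocal Africanized and European crosses, were older than 18 days after emergence, and had been kept about 18 days in colonies without a queen. RNA was polyadenylated RNA from the gutted abdomen with its fat body and ovaries, with 1 bee to a library. The titles of the libraries start with 1 of 4 numbers, 875, 882, 888 and 894, called prefixes here and used as the cross. The labels do not say what the prefix marks, and nothing says whether bees of a prefix came from separate colonies. Each prefix had 3 active bees, and it had 3 inactive bees, except prefix 882 with 4. Bee numbers follow the deposited order within a group and carry no other meaning.

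Library totals had a median of 27.6 M counts in active bees (M, 1e6; 11.5 M to 34.7 M) and 24.0 M in inactive bees (7.54 M to 37.7 M). The 10 most abundant genes took 11.9% to 27.4% of counts in active bees and 8.18% to 33.6% in inactive bees. Over the 12209 genes at 1 CPM or more, the median log2 ratio of active to inactive means was 0.21. With library sizes scaled by the trimmed mean of M-values (TMM) it was -0.01. The members' CPM ratios over all bees below thus hold a shift of about 0.21. Within prefixes 875, 882, 888 and 894 the median log2 ratio of these genes in CPM was -0.038, 0.394, 0.435 and 0.034. The members' CPM ratios by prefix thus hold unequal shifts. At the 1 CPM limit a library gives few reads. In inactive bee 10, the shallowest, 8 reads made 1.06 CPM with a 95% Poisson interval of 0.458 to 2.09 CPM, and in inactive bee 12, the deepest, 38 reads made 1.01 CPM (0.714 to 1.38). That interval held 1 CPM for 514 of the 1464 values of a member in an active bee (35.1%) and for 657 of 1586 in an inactive bee (41.4%), and it covers counting error alone. Inactive bees 6, 8 and 9 stood apart in reads that tell the parents apart. Genes balanced between the parents in at least 2 bees of the prefix had almost no D reads, explained with the allele tables below, in 17, 14 and 26 cases in these bees, against at most 3 in any of the other 22. Without them 96 genes met the rule, 91 of them members. Values for their prefixes and for the tests are given with and without them.

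The members were low genes in both groups. Mean levels ran from 0.954 to 34.1 CPM in active bees, with a median of 1.84, and from 0.189 to 1.0 CPM in inactive bees, with a median of 0.673. The ratio of the means ran from 2.01 to 41.9 with a median of 2.68, and it reached 5 in 10 members and 10 in 3. Only 45 members averaged 2 CPM or more over active bees, 11 averaged 3 or more and 4 averaged 5 or more. With the shift of all genes taken off, the members' median log2 ratio was 1.21 in CPM and 1.25 with TMM-scaled library sizes. Each library pools abdominal wall, fat body and ovary, so fewer cells of a type and less RNA per cell cannot be told apart.

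**Figure D1:**
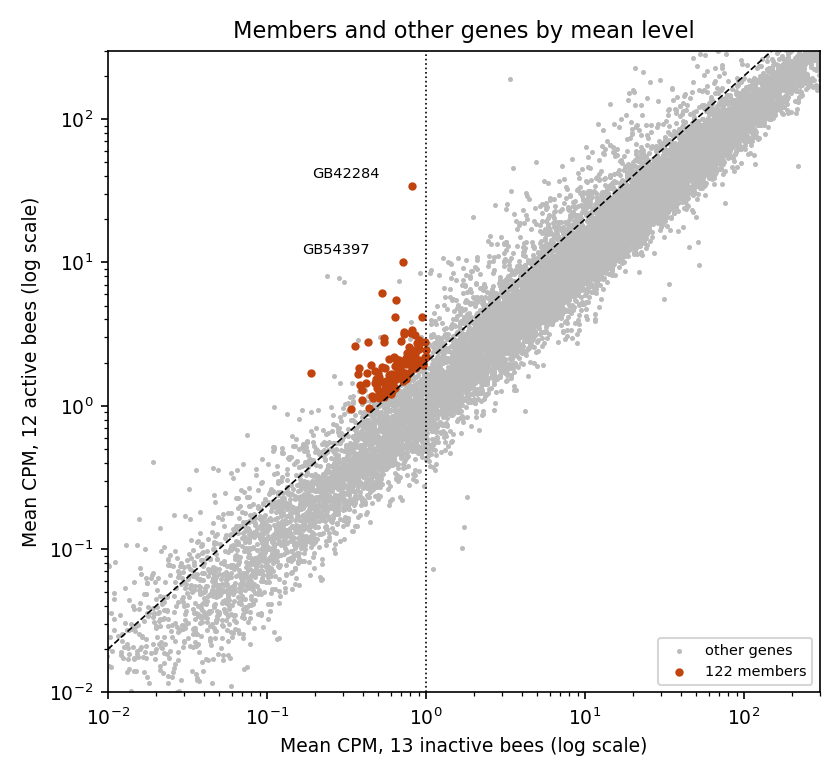
Mean CPM of each gene over 13 inactive bees (horizontal, log scale) and over 12 active bees (vertical, log scale), with the 122 members in orange and other genes in grey. The dotted line marks 1 CPM and the dashed line a ratio of 2. Most members sit within a narrow range above the dashed line, and GB42284 (34.1 CPM active, 0.815 CPM inactive) and GB54397 (10.01 CPM active, 0.714 CPM inactive) stand highest.

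A name of genes switched on with active ovaries went further than these values. All 122 members had at least 1 read in each of the 12 active libraries, and 88 had at least 1 read in each of the 13 inactive libraries. The fewest inactive libraries with a read was 10. In none of the members (0) did the lowest active bee lie above the highest inactive bee. The members are therefore better described as genes low with inactive ovaries and higher in most active bees. Over single bees, members were on in 1047 of 1464 active values and in 334 of 1586 inactive values. The Poisson interval lay wholly above 1 CPM in 768 of the active values (52.5%) and 129 of the inactive ones (8.13%).

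Members differed in how many active bees they were on in. The number on in exactly 6, 7, 8, 9, 10, 11 and 12 active bees was 21, 13, 25, 23, 22, 13 and 5. The 5 that were on in every active bee were GB42011, GB43977, GB48084, GB52103 and GB55819. None of these was silent in inactive bees, since each was on in 3 to 7 of the 13, with ratios of means of 2.11 to 3.10. The 6 that were on in no inactive bee were GB40645, GB45246, GB45338, GB53121, GB54424 and GB55108. Their means in active bees, 0.954 to 1.70 CPM, lay below the members' median. They were on in only 6 or 7 active bees, and reached up to 0.928 CPM in an inactive bee. Being on in every active bee and being on in no inactive bee did not occur together in any member.

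**Figure D2:**
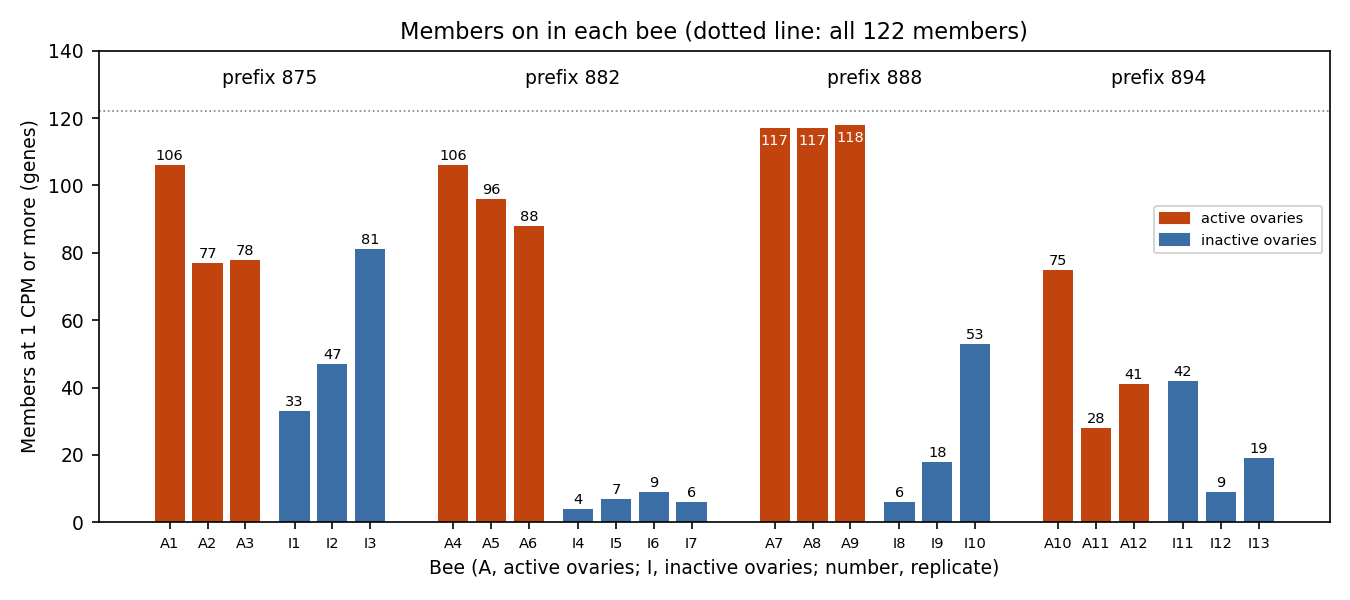
Number of the 122 members at 1 CPM or more in each bee, by prefix, with active bees (A) left of inactive bees (I). Active bees of prefix 888 reach 117 to 118, inactive bees of prefix 882 stay at 4 to 9, and inactive bee 3 of prefix 875 reaches 81.

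By bee, the number of members on had a median of 92 in active bees (range 28 to 118) and 18 in inactive bees (range 4 to 81). In prefix 875, active bees had 106, 77 and 78 members on, against 33, 47 and 81 in inactive bees. In prefix 882, active bees had 106, 96 and 88, against 4, 7, 9 and 6 in inactive bees. In prefix 888, active bees had 117, 117 and 118, against 6, 18 and 53 in inactive bees. In prefix 894, active bees had 75, 28 and 41, against 42, 9 and 19 in inactive bees. The groups did not overlap in prefixes 882 and 888 and overlapped in prefixes 875 and 894. Inactive bee 3 had more members on than 5 of the 12 active bees, and active bees 11 and 12 had fewer on than inactive bee 11. Bringing every library down to the smallest total gave medians of 85 members on in active bees and 20 in inactive bees. With TMM-scaled library sizes the medians were 80.5 in active bees and 29 in inactive bees. On that scale prefix 875 no longer overlapped, with 95, 70 and 73 members on in active bees against 33, 37 and 52 in inactive bees, and inactive bee 3 had more members on than 2 active bees.

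**Figure D3:**
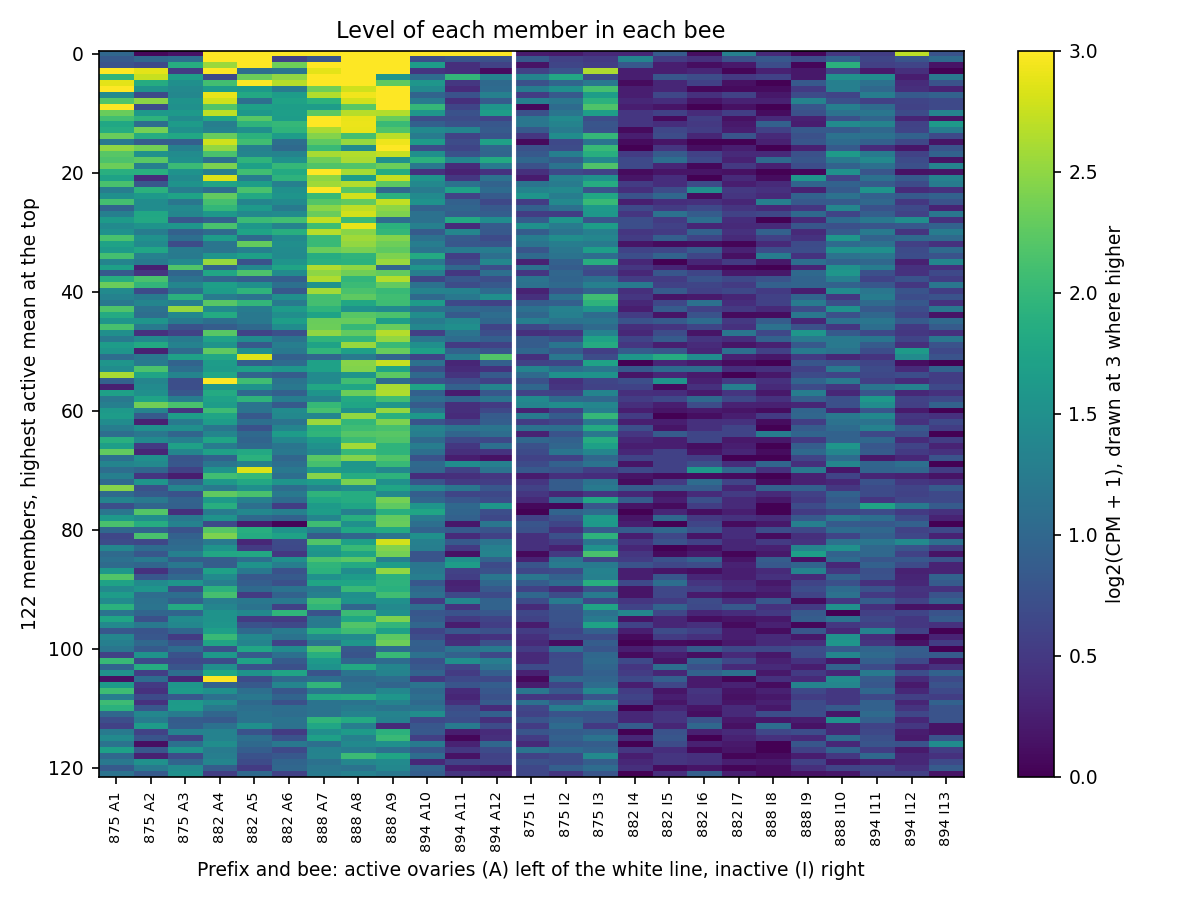
Level of each of the 122 members (rows, ordered by mean level in active bees) in each bee (columns, active bees left of the white line), as log2(CPM + 1) with colours capped at 3. The 3 active bees of prefix 888 are high over most rows, the 3 active bees of prefix 894 are low over most rows, and inactive bees 3 and 10 are raised over many of the same rows.

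Every inactive bee had some members on, and most of the values at 1 CPM or more came from a few bees. Of the 334 inactive values at 1 CPM or more, 256 (76.6%) came from 5 bees, which were inactive bees 1, 2 and 3 of prefix 875, bee 10 of prefix 888 and bee 11 of prefix 894. The other 8 inactive bees held the rest. With TMM-scaled library sizes the same 5 bees held 203 of 338 (60.1%), and inactive bees 8, 9, 12 and 13 had 14, 33, 19 and 29 members on, against 6, 18, 9 and 19 in CPM. Per member, 6, 23, 34, 20, 18, 16, 4 and 1 of the 122 were on in exactly 0, 1, 2, 3, 4, 5, 6 and 7 inactive bees, so 116 were on in at least 1. Without inactive bees 6, 8 and 9, 301 of the 334 values were left, the median of members on was 26, and 116 members were still on in at least 1 inactive bee.

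Inactive bee 3 carried the most. It had 81 members on, 10 of them on in no other inactive bee, and it was the highest inactive bee for 59 of the 122. Of its 81 members, 39 were also on in all 3 active bees of its own prefix, and 51 members were higher in it than in at least 2 of these 3. This bee also had the largest TMM factor (1.44, against 0.628 to 1.14 in the other inactive bees) and the smallest share of counts in the 10 most abundant genes (8.18%) of all 25. With TMM-scaled library sizes 52 members were on in it, against 70 to 95 in the active bees of prefix 875, and 32 were higher in it than in at least 2 of them. The part of this library's make-up in the result was not tested. Its total of 25.8 M counts lay near the median, and 79 members stayed on after thinning.

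Inactive bee 10 had 53 members on, 36 of them shared with bee 3 and 17 not on in bee 3, and it was the highest inactive bee for 21. It was the shallowest library, at 7.54 M counts. Inactive bees 2, 11 and 1 had 47, 42 and 33 members on. At the other end, inactive bees 4 to 7, all of prefix 882, had 22 of the 122 members on in any of them. Levels moved the same way as the counts. The median level of the members was 1.26 CPM in inactive bee 3 and 0.251 CPM in inactive bee 7, and it ran from 0.579 CPM in active bee 11 to 3.10 CPM in active bee 9.

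Medians over members are given by prefix for the active and the inactive end, as descriptions with no test. The median over members of the mean active level was 1.53 CPM in prefix 875, 1.67 in 882, 3.06 in 888 and 0.896 in 894. The median of the mean inactive level was 1.02, 0.357, 0.664 and 0.635 CPM in the same order, and without inactive bees 6, 8 and 9 it was 0.338 CPM in prefix 882 and 0.928 CPM in 888. Prefix 875 thus held the highest inactive levels in CPM and prefix 894 the lowest active ones. With TMM-scaled library sizes the inactive medians were 0.854, 0.419, 0.719 and 0.68 CPM in prefixes 875, 882, 888 and 894. Within prefix 875 the members' median level was 1.26 CPM in inactive bee 3. It was 0.585 and 0.828 CPM in inactive bees 1 and 2, against 0.928 CPM in bee 10 and 0.876 CPM in bee 11. The highest active mean of a member was in prefix 888 for 101 of the 122, in 882 for 11, in 875 for 10 and in 894 for 0. The lowest active mean was in prefix 894 for 97. The highest inactive mean was in prefix 875 for 89 and in 882 for 2. These counts are in CPM. In the fits tested below, which scale by TMM, the highest inactive level was in prefix 875 for 63 of 121 members. It was in 888 for 29, in 894 for 22 and in 882 for 7. Among active bees the fitted level was highest in 888 for 89 and lowest in 894 for 87.

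Seen as ratios of active to inactive means in CPM, the median over members was 1.56 in prefix 875, 4.49 in 882, 4.69 in 888 and 1.43 in 894. With TMM-scaled library sizes the median ratio was 1.68 in prefix 875, 3.46 in 882, 3.51 in 888 and 1.4 in 894. The active mean was the higher one in 115, 122, 122 and 102 of the 122 members in that order. Members on in all 3 active bees of a prefix numbered 47, 69, 110 and 12, and those on in none of its inactive bees numbered 25, 100, 53 and 67. Every active bee lay above every inactive bee of its prefix in 13 members in 875, 97 in 882, 106 in 888 and 9 in 894. Over all genes with a count the same held for 1.99%, 20.9%, 31.9% and 2.19%. Without inactive bees 6, 8 and 9 the median ratio was 5.0 in prefix 882 and 3.70 in 888, where 1 inactive bee was left, and 104 and 109 members did not overlap, against 32.3% and 42.9% of all genes. These counts restate the choice of the members and nothing is read from them.

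The member with the highest mean and the largest ratio was GB42284. In active bees it had 1.0035, 0.0425 and 0.109 CPM in prefix 875, 56.4, 9.56 and 7.24 in 882, 136, 112 and 27.6 in 888, and 9.29, 33.5 and 16.8 in 894. In inactive bees it had 0.167, 0.166 and 0.272 CPM in prefix 875, 0.258, 0.812, 0.0833 and 1.48 in 882, 0.280, 0.0355 and 0.398 in 888, and 0.453, 5.50 and 0.697 in 894. The gene was high in the 9 active bees of 3 prefixes, every one of them above every inactive bee, while 2 of the 3 active bees of prefix 875 lay among the lowest of all 25. In active bees 2 and 3 these low levels stood for 1 and 3 reads. Among active bees it was called in the test of any difference between the 4 prefixes (edgeR's quasi-likelihood test, adjusted p = 0.0204). The fitted difference of 888 over 875 was 7.75 (log2). No member was called in this test without active bee 12.

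GB54397 had the second highest mean, and it came from 4 bees. In active bees it had 0.803, 1.02 and 1.12 CPM in prefix 875, 26.5, 56.2 and 0.490 in 882, 0.753, 16.6 and 14.5 in 888, and 0.651, 0.724 and 0.680 in 894. In inactive bees the lowest, median and highest levels were 0.333, 0.660 and 1.55 CPM. Active bees 4, 5, 8 and 9 had 14.5 CPM or more, while the other 8 active bees lay within the range of inactive bees. It was called among active bees in the test of any prefix difference (edgeR adjusted p = 0.0434), with 882 over 894 at log2 5.08. In this difference 1 bee of prefix 882 and 1 of prefix 888 were at the low level. Like GB42284, it was not called without active bee 12. It lies on scaffold Group16.2, where the allele tables list 3 positions between 1537552 and 1537607. The genome build of the scaffolds is not given in the sources used here.

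Other members were on in every active bee. GB43977 had 2.11, 2.42 and 1.37 CPM in active bees of prefix 875, 1.25, 1.48 and 1.73 in 882, 3.96, 4.21 and 3.79 in 888, and 1.23, 1.38 and 1.40 in 894. Its inactive bees had a lowest, median and highest level of 0.220, 0.725 and 2.21 CPM, and 5 of the 13 were on. All 3 active bees of prefix 888 lay above the other 9, and the highest inactive bee, which was bee 3, lay above 8 of the 12 active ones. The prefix difference among active bees did not pass (edgeR adjusted p = 0.0577). GB52103 had a lowest, median and highest level of 1.18, 2.66 and 5.15 CPM in active bees and 0.116, 0.828 and 1.66 CPM in inactive bees, 6 of which were on.

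GB48084 was on in the most inactive bees, 7 of 13. Its levels in active bees were 1.96, 1.95 and 1.34 CPM in prefix 875, 1.11, 1.30 and 2.22 in 882, 3.96, 3.92 and 2.22 in 888, and 1.37, 1.63 and 1.0026 in 894. In inactive bees they were 1.45, 1.20 and 1.24 CPM in prefix 875, 0.709, 0.812, 1.08 and 0.408 in 882, 0.840, 0.248 and 1.19 in 888, and 1.27, 0.823 and 1.04 in 894. In prefixes 875 and 894 the groups overlapped, and in 882 and 888 they did not. GB40732 was on in 6 inactive bees, with a lowest, median and highest level of 0.609, 1.77 and 4.92 CPM in active bees and 0.283, 0.936 and 1.99 CPM in inactive bees.

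**Figure D4:**
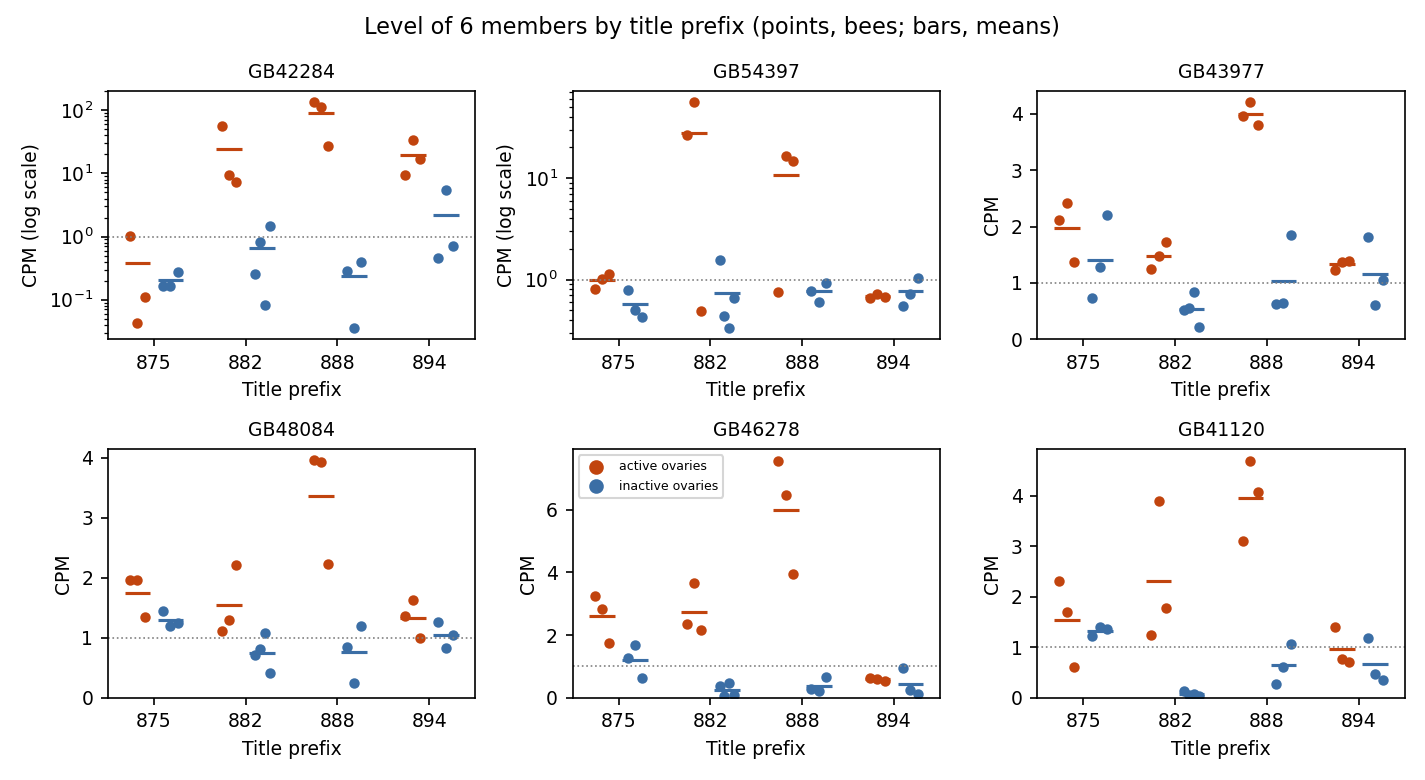
CPM of 6 members in each bee (points) by prefix, with active bees left of inactive bees, horizontal bars for means and a dotted line at 1 CPM; GB42284 and GB54397 are on a log scale. GB42284 is low in active bees of prefix 875 alone, GB54397 is high in 4 active bees, and GB41120 lies between 0.0314 and 0.129 CPM in inactive bees of prefix 882.

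Members near a limit of the rule differed little from genes that missed it. GB47646 was the last under the limit on the inactive mean, at 0.9999 CPM, and GB51193 the first above it, at 1.015 CPM, with active means of 2.44 and 2.11 CPM. GB49835 was the last to be on in 6 active bees, with a sixth highest level of 1.003 CPM, and GB44267 the first to miss that, at 0.994 CPM. GB45675 had the smallest ratio of means, 2.008, and GB46577 the largest that missed the limit, 1.996. Genes that failed the inactive limit alone numbered 883, those that failed the limit on bees alone 396, and those that failed the ratio alone 143. The members are thus one end of a longer range of genes.

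Differences between prefixes among active bees were tested with edgeR's quasi-likelihood test over 13750 genes. All 122 members passed the filter on low counts, 19 of them (15.6%) were called at a Benjamini-Hochberg adjusted p under 0.05, and 6.6% of all genes were. At an unadjusted p under 0.05 the shares were 58 members of 122 and 28.7% of all genes. The 19 had their highest prefix in 888 for 16 and in 882 for 3, and their lowest in 894 for 15 and in 875 for 4. Highest and lowest prefix differed by 1.60 to 7.75 on the log2 scale, with a median of 2.34. The rule used the level in active bees, so the members' share is not a test against other genes.

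The smallest p belonged to GB46278. It had 3.26, 2.85 and 1.74 CPM in active bees of prefix 875, 2.36, 3.65 and 2.16 in 882, 7.56, 6.48 and 3.93 in 888, and 0.617, 0.616 and 0.537 in 894. All 3 active bees of prefix 888 lay above the other 9, and all 3 of prefix 894 below them. The difference of 888 over 894 was 2.90 (log2, SE 0.378). The test of any prefix difference gave an adjusted p of 0.0114 by edgeR. In inactive bees its lowest, median and highest levels were 0.0624, 0.387 and 1.70 CPM, and the active bees of prefix 894 lay inside that range.

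GB52668 followed. It had 2.71, 2.72 and 1.88 CPM in active bees of prefix 875, 1.44, 3.21 and 2.54 in 882, 8.08, 5.09 and 2.64 in 888, and 0.343, 0.217 and 0.358 in 894. The 3 active bees of prefix 894 lay below all others, and the prefixes 888, 875 and 882 overlapped. The difference of 888 over 894 was 3.64 (SE 0.479), and the test of any prefix difference gave edgeR adjusted p = 0.0119. Both calls were lost without active bee 12, at edgeR adjusted p of 0.0513 for GB46278 and 0.0501 for GB52668.

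The count of 19 rested on single bees. It was 0 without active bee 12, 3 without bee 8, 4 without bee 9 and 4 without bee 11. It was 6 without bee 7, 8 without bee 5 and 9 without bee 10, and it was 29 without bee 2. The count over all genes moved likewise, between 74 and 2837 over the 12 bees left out in turn. With DESeq2's likelihood ratio test 52 members and 2922 genes were called. As an order of levels with no test, all 3 active bees of prefix 888 lay above the other 9 in 33 members, and so did 8.61% of all genes. All 3 of prefix 894 lay below the other 9 in 19 members and 5.02% of all genes. With TMM-scaled library sizes these were 18 members (4.85% of all genes) and 8 members (1.79%). Active bees of prefix 894 had TMM factors of 0.914 to 0.981 and those of prefix 888 of 1.15 to 1.26, and the part of this in the result was not tested.

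Differences between prefixes among inactive bees called 1 of 13655 genes (0.00732%) and 0 of the 121 members tested. At an unadjusted p under 0.05 there were 27 members, against 9.8% of all genes, and DESeq2's likelihood ratio test called 7 members and 451 genes. The smallest p of a member was that of GB41120. Its inactive bees had 1.23, 1.41 and 1.36 CPM in prefix 875, 0.129, 0.0624, 0.0833 and 0.0314 in 882, 0.280, 0.603 and 1.06 in 888, and 1.18, 0.478 and 0.348 in 894. In CPM prefix 875 lay above all others and prefix 882 below all others, where the gene had 2, 1, 2 and 1 reads. With TMM-scaled library sizes inactive bee 3 of prefix 875 lay below inactive bee 11 of prefix 894. The difference of 875 over 882 was 3.70 (log2, SE 0.593). In the test of any prefix difference GB41120 had an adjusted p of 0.0728 by edgeR. It passed the threshold without inactive bee 8 (edgeR adjusted p = 0.0225). It did not pass with any of the other 12 bees left out in turn (edgeR adjusted p 0.0673 to 0.276), nor without inactive bees 6, 8 and 9 together (0.0994). GB50799 had 1.39, 1.82 and 3.34 CPM in inactive bees of prefix 875, against 0.193, 0.250, 0.0417 and 0.0628 CPM in prefix 882, a difference of 3.59 (SE 0.744). Its edgeR adjusted p in the test of any prefix difference was 0.143. With DESeq2's likelihood ratio test both GB41120 and GB50799 passed (adjusted p under 0.05). Without inactive bees 6, 8 and 9, edgeR called 0 members and 110 genes.

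**Figure D5:**
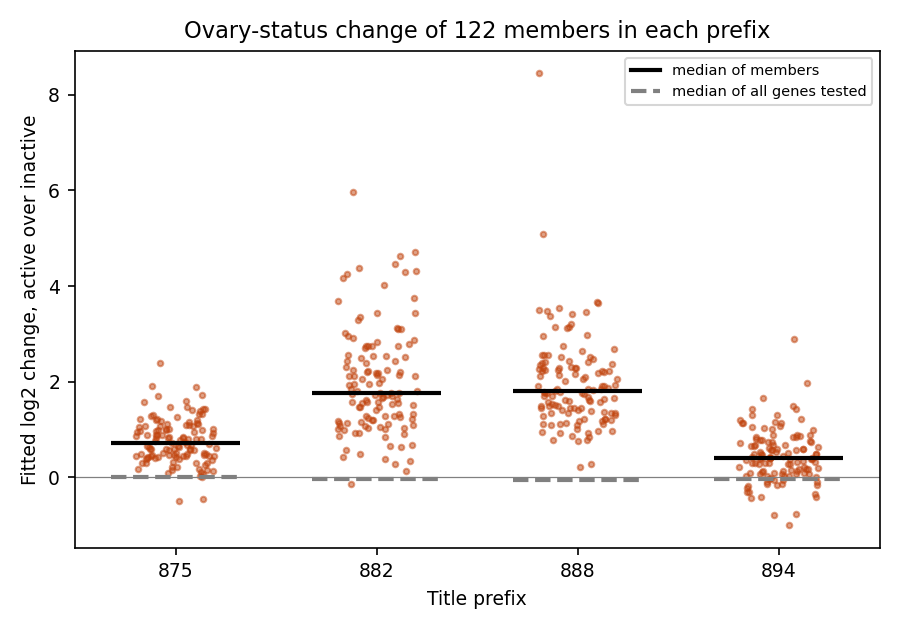
Fitted log2 change, active over inactive, of each of the 122 members (points) in each prefix, with the median of members (solid line) and of all genes tested (dashed line). The members' medians are 0.73, 1.76, 1.80 and 0.41 in prefixes 875, 882, 888 and 894, and those of all genes lie near 0.

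The change with ovary status was next compared between prefixes, as an interaction in one fit of all 25 bees. The members' median fitted log2 change, active over inactive, was 0.73 in prefix 875, 1.76 in 882, 1.80 in 888 and 0.41 in 894, and over all genes it was 0.01, -0.03, -0.06 and -0.02. The mean change chose the members, so their distance from all genes is no result, and only the difference between prefixes within a gene is tested. Changes above 1 were found in 37, 105, 110 and 19 of the 122 members in the same order. For single genes few of these differences passed the test. Of 13991 genes 21 were called (0.15%), among them 1 of the 122 members, and 36 members had an unadjusted p under 0.05, against 11.5% of all genes. DESeq2's likelihood ratio test called 12 members and 440 genes.

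The member called was GB41120. In active bees it had 2.31, 1.70 and 0.615 CPM in prefix 875, 1.25, 3.91 and 1.79 in 882, 3.11, 4.70 and 4.07 in 888, and 1.41, 0.761 and 0.716 in 894. Set beside the inactive levels above, active and inactive bees overlapped in prefixes 875 and 894 and stood apart in 882 and 888. The log2 change was larger in prefix 882 than in 875 by 4.25 (SE 0.781). The test of any difference of the change between prefixes gave edgeR adjusted p = 0.0439. The call was lost in 17 of the 25 fits that left out 1 bee, and without inactive bees 6, 8 and 9 (edgeR adjusted p = 0.112), while the difference stayed between 3.75 and 4.67. The inactive bees of prefix 882 behind this difference had 1 or 2 reads each.

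GB46474 came next. It did not pass with edgeR, and it passed with DESeq2's likelihood ratio test (adjusted p under 0.05). Its active bees had 1.71, 0.595 and 1.63 CPM in prefix 875, 6.49, 2.52 and 2.16 in 882, 5.30, 6.67 and 9.25 in 888, and 0.960, 0.688 and 1.47 in 894. In inactive bees it had 0.446, 0.787 and 2.17 CPM in prefix 875, 0.193, 0.562, 0.333 and 0.503 in 882, 0.140, 0.603 and 0.531 in 888, and 1.42, 0.797 and 0.929 in 894. The change was larger in prefix 888 than in 894 by 3.59 (SE 0.838), and the test of any difference of the change gave edgeR adjusted p = 0.0685. Active and inactive bees overlapped in prefixes 875 and 894 and stood apart in 882 and 888.

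Most members varied together over bees of the same status. The correlation (r) of each member's log2(CPM + 1) with the mean of the other members had a median of 0.745 over the 12 active bees (range -0.181 to 0.964) and 0.685 over the 13 inactive bees (range -0.291 to 0.959). It was at least 0.5 in 99 members over active bees and in 90 over inactive bees. The bees share prefix, library make-up and depth in these values, so they are descriptions. GB49017 was the one member below 0 over active bees, named here after its values were seen. Its mean was 3.21 CPM in active bees of prefix 882 and 1.11 CPM in those of prefix 888, an order against that of most members. Over inactive bees 7 members were below 0, among them GB42284, GB49017 and GB54397.

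The genes outside the rule that followed the members most closely over active bees were more abundant. GB41060 had r = 0.987 with the members' mean level and GB45077 had r = 0.984, each over 12 bees, while the median over 12132 other genes was 0.222. GB41060 had a lowest, median and highest level of 12.2, 33.0 and 109 CPM in active bees and 3.42, 13.5 and 29.1 CPM in inactive bees. GB45077 had 11.3, 31.2 and 113 CPM in active bees and 3.05, 7.54 and 21.5 CPM in inactive bees. Both were highest in active bees of prefix 888 and lowest among active bees in prefix 894, and in inactive bees both were high in prefix 875 and in bee 10.

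Some members may share reads or neighbour each other. GB40088 and GB40127 had equal counts in 11 of 25 libraries and never differed by more than 3 reads (r = 0.99), so their counts are uncertain if reads fit both. GB47646 and GB47647 carry successive numbers and had r = 0.977. GB43535 and GB43536, GB48807 and GB48808, and GB50798 and GB50799 carry successive numbers too, and their counts were less alike (r = 0.845 to 0.893). Of 2390 pairs of genes with successive numbers and a known position, 98.5% were on the same scaffold, which makes such pairs likely neighbours. Positions were listed for 27 members (22.1%), against 34.8% of all genes, on 24 scaffolds.

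Reads at positions that differ between the parents were counted as D and Q in the allele tables. The letters are not defined in the labels or headers. They are read here as drone father and queen mother. At the members' low levels few reads were left. In active bees 16 members had enough reads at 54 combinations of position and prefix, and at 28 of these (51.9%) D and Q agreed within 1 read. Counting the same read under both letters would give this pattern, and that was not tested. In inactive bees 5 members had 10 such combinations, 8 of them (80%) within 1 read. At positions that told the parents apart, 458 of 1102 genes (41.6%) had unequal parental counts in active bees, 380 towards D and 78 towards Q (edgeR's quasi-likelihood test with a block per library). Positions with nearly equal D and Q had been left out there, so this is not a share of all genes with enough reads. With every position that had enough reads it was 641 of 2665 genes (24.1%).

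With every position that had enough reads, 6 members could be tested and 0 were called. These positions include some with D and Q nearly equal. In active bees of prefixes 875, 882, 888 and 894 GB45473 had 27, 52, 109 and 28 D reads against 26, 53, 110 and 29 Q reads. Such positions could not give a call, so nothing is read from the 0. At positions that told the parents apart 1 member could be tested, GB49395 with a position at 644462 on scaffold Group12.16. In active bees its D reads were 7, 9 and 3 against 13, 24 and 5 Q reads in prefix 875. They were 21, 7 and 20 against 21, 3 and 9 in prefix 882, 33, 83 and 68 against 15, 35 and 20 in prefix 888, and 14, 2 and 7 against 10, 0 and 5 in prefix 894. D took 31.1% of reads in prefix 875, 59.3% in 882, 72.4% in 888 and 60.5% in 894. D was the smaller count in prefix 875 and the larger one in the other prefixes. The mean log2 ratio of D over Q was 0.41 (SE 0.181, edgeR adjusted p = 0.105). In the same test, without prefix 875 it was 0.91 (edgeR adjusted p = 0.0176), and without prefix 888 it was 0.08 (edgeR adjusted p = 0.993).

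GB54397 had the most reads at positions that told the parents apart, 413 D and 492 Q, all in active bees of prefix 882 and at 3 positions that share reads, so the number of separate reads is smaller. GB42459, with a position at 60411 on scaffold Group7.21, was chosen after its values were seen. In active bees of prefix 888 it had 23, 50 and 32 D reads and 0 Q reads, which allows a Q share of up to 2.86% by counting error alone. In active bees of prefixes 882 and 894 it had 22 D with 22 Q reads and 18 D with 18 Q reads. In active bees of prefix 875 it had 12 D and 18 Q reads, too few to be used. It did not enter the test, since its position both had enough reads and told the parents apart in prefix 888 alone.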

How the data were processed

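Gene expression was measured by sequencing polyadenylated RNA from 25 single bees. The authors deposited raw read counts per gene and, for active and inactive bees in separate tables, raw D and Q read counts per position. Per the submitters' processing notes TopHat and edgeR were used. Versions, genome build, annotation, counting tool and strand setting are not given in the sources read here, so overlapping and antisense genes may share reads. CPM were computed here as count over library total times 1000000. A floor for 0 reads is 3 reads of the total. The members and lists were chosen with earlier results of these data known.

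Tests ran over the whole gene table with the quasi-likelihood F test of edgeR 4.0.16 (R 4.3.3), after filterByExpr and TMM, fitted robustly, with Benjamini-Hochberg adjusted p under 0.05 as a call. An SE belongs to the contrast of the highest and lowest prefix, as its absolute log2 size over the root of F. In tests between prefixes the adjusted p is that of any difference between the prefixes, not of that pair. DESeq2 1.42.0 was an alternative, and others were library scaling, the CPM limit, the number of bees required, no filter on low counts and bees left out. The labels do not say that bees are independent draws of a cross. A p-value between prefixes sets their difference against the spread of bees within a prefix and status. In such a difference, cross and colony cannot be told apart. Counts at positions were summed per gene where at least 2 bees of a prefix had 10 or more reads and D and Q differed more than a chi-square distribution gives in its lower 0.01, and every position was an alternative. A gene was counted as having lost D reads in a bee at a D share of at most 0.05 in 30 or more reads, where at least 2 bees of its prefix lay between 0.35 and 0.65. Each test was tested on simulated counts. Named genes were 2 members each for highest active mean, ratio, active minimum and number of inactive bees on, smallest p in the tests and most parental reads, the genes next to each limit, and the 2 non-members most like the members.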

Additional observations from a re-analysis of the deposited data

Results flagged for a closer look

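GB44267, which missed the rule by the level of its sixth highest active bee, had 1 inactive bee of prefix 882 apart from the other 3. The levels were 0.129, 0.125, 0.541 and 0.126 CPM in inactive bees 4 to 7, and the gap of bee 6 to its nearest neighbour was 0.99 of the range, against a critical value of 0.829 for 4 bees. Chance flags about 1 in 20 values tested this way. Of the 22 tested GB44267 alone was flagged, near the number that chance gives, so nothing is read from it. Bee 6 is one of the 3 bees that stood apart in parental reads. GB41120 changed with ovary status by different amounts in different prefixes, by 4.25 more on the log2 scale in prefix 882 than in 875. Its inactive bees had 1 or 2 reads each in prefix 882.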

How the results depend on the processing

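The 122 members depended on the rule. They numbered 63 when 9 of 12 active bees had to be on, 80 without prefix 882, 65 without prefix 888, and 95 to 159 with each bee left out in turn. With TMM-scaled library sizes there were 85 members, 84 of them shared. Limits of 0.5 and 2 CPM gave 82 and 141 members, of which 20 and 26 were shared. Per bee, the median number of members on in active bees was 34.5 at 2 CPM, and that in inactive bees was 67 at 0.5 CPM. Prefix differences among active bees called 0 to 29 members and 74 to 2837 genes with each bee left out, and 52 members and 2922 genes with DESeq2. Among inactive bees they called 0 to 1 members and 0 to 172 genes with each bee left out, 7 and 451 with DESeq2, and 110 genes without inactive bees 6, 8 and 9. The interaction called 0 to 2 members and 0 to 101 genes with each bee left out, 12 and 440 with DESeq2, and 0 members without inactive bees 6, 8 and 9. In the parental test 1 member was called without prefix 875 and 0 without each other prefix. Without inactive bees 6, 8 and 9 there were 96 members. The cause of these moves was not tested. Reads at 1 CPM limit every call of a member as on. The TMM values for bee orders among active bees and for inactive bees, and the values by prefix without inactive bees 6, 8 and 9, were chosen after seeing the data. No paired analysis was possible because the labels pair no active bee with an inactive bee; the prefix, which both groups share, was a term in the interaction fit.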
